A study of Mus musculus with 6 samples.

Results

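The NLRP3 inflammasome components were examined in microglia from mice with acute ischemic stroke (AIS). They were taken as 10 genes, Nlrp3, Nlrc4, Aim2, Pycard, Nek7, Casp1, Casp4, Il1b, Il18 and Gsdmd, out of 23462 genes that have a named probe on the array. Every probe that is not a control and whose accession matched one of these genes was read, which gave 14 probes, and none was left out for its values. Aim2, Nek7, Il1b and Gsdmd have 2 probes each, and the other 6 genes have 1. The 3 control samples came from PGC-1α f/f mice, whose PGC-1α allele has loxP sites at its sides and comes with eGFP, a green fluorescent reporter. The 3 mPGC-1α samples came from mice that carry the same alleles plus a tamoxifen-inducible Cre under the Cx3cr1 promoter. PGC-1α is thus meant to be overexpressed in microglia after tamoxifen. By the strain name in the study's methods, this Cre is a targeted Cx3cr1 allele. The groups therefore differ in that allele as well as in PGC-1α, and these cannot be told apart here. According to the labels all mice were male and aged 10 weeks, and per the study's methods both groups were littermates, were given tamoxifen and had the middle cerebral artery occluded transiently (tMCAO). The cells were selected with magnetic beads for the microglial surface receptor P2RY12, and the RNA of each sample was hybridised to 1 Agilent mouse gene expression array. The time between AIS and cell isolation, and whether each sample is 1 mouse or a pool, are not given in the sources used here, so p-values measure the spread between these samples, which may be technical.

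Inflammasomes are cytosolic complexes in which a sensor, on detecting damage or infection, gathers the adaptor ASC and activates caspase-1. Caspase-1 cuts the precursors of IL-1β and IL-18 into active cytokines and cuts gasdermin D, whose fragment opens pores in the plasma membrane and can lead to pyroptosis. In microglia and macrophages the pathway is usually described in separate steps, a priming signal through NF-kappaB that raises Nlrp3 and Il1b mRNA, and an activating signal such as potassium efflux that assembles the complex, so mRNA levels bear on priming and not on assembly. After brain ischemia, inflammasomes of microglia are regarded as a source of IL-1β.

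Since the pathway is primed through transcription, the sequence before the start of the genes is shown for those that the comparisons below turn on, namely Nlrp3 and Il1b as the priming targets, and Casp1, Casp4 and Il18, whose groups did not overlap. Each line gives the 250 bases upstream of a RefSeq start (build GRCm38.p6), 5′ to 3′ on the gene's strand. Capitals mark matches to the NF-kappaB consensus, searched on both strands.
Nlrp3, chr11:59541319-59541568, plus strand: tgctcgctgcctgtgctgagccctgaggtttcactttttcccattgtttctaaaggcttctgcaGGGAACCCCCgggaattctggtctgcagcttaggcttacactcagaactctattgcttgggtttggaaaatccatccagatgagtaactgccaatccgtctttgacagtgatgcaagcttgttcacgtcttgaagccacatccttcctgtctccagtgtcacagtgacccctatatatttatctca
Il1b, chr2:129371140-129371389, minus strand: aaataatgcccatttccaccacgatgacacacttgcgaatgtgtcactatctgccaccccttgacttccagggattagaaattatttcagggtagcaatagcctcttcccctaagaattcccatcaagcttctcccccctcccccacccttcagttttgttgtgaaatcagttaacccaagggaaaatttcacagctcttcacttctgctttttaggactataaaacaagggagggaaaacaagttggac
Il18, chr9:50554450-50554699, plus strand: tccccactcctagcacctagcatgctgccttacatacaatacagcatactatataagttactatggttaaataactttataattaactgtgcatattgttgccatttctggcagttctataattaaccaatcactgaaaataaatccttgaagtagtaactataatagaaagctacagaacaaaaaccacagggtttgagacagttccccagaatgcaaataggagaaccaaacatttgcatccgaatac
Casp1, chr9:5298267-5298516, plus strand: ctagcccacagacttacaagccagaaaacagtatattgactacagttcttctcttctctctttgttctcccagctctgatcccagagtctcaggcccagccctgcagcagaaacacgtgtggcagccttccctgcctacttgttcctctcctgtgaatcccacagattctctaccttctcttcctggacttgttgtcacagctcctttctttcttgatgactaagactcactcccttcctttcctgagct
Casp4, chr9:5308599-5308848, plus strand: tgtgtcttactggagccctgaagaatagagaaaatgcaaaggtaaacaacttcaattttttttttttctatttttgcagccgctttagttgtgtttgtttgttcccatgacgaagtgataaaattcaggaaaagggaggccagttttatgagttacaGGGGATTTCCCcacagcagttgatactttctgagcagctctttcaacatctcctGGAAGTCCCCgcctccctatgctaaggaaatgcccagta
The printed Nlrp3 window held 1 stretch matching the NF-kappaB consensus, which begins 186 bases before the start. The window of another RefSeq start of Nlrp3 (chr11:59542436-59542685) is not printed and held no match. The Casp4 window held overlapping matches that begin 93 and 92 bases before the start, and another that begins 39 bases before it. No match lay in the printed windows of Il1b, Il18 and Casp1, which says only that these letters are not in these 250 bases. Of the 11 windows of the 9 member genes in the promoter table, 3 had an NF-kappaB match, against 7.25% of all 32851 windows. These were the printed window of Nlrp3 and both windows of Casp4, which overlap and hold the same matches. A PU.1 motif (GAGGAAGT) lay in 2 of the 11 member windows, those of Aim2 and Pycard, against 2.44% of all windows. The motif of the estrogen-related receptors (AAGGTCA), nuclear receptors that PGC-1α coactivates, was in 0 of 11 member windows and 4.08% of all windows. These matches describe letters and are not measured binding sites.

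The values below are levels, log2 of a probe's processed intensity minus the 75th percentile of its array, so that 0 is the brightness at the 75th percentile and a difference of 1 means an intensity 2 times as high. A level belongs to its probe and is not compared with that of another gene. The 14 probes were bright enough to be measured. All 84 readings of these probes over the 6 arrays were well above background and 0 were saturated, while 2 readings, from Nek7 on mPGC-1α array 3 and Il1b on control array 3, carried the scanner's outlier mark and were left out of the tests. Whole arrays differed in quality. Between 71.0% and 86.5% of spots were well above background, and array 3 of either group had the most outlier marks, with 5.08% and 8.31% of spots against 0.926% to 1.84% on the other 4. Arrays 1 and 2 of each group lay on one slide and array 3 of each on another. All 15 microglia markers were well above background on all 6 arrays, as were most markers of other cell types given below, so this does not show how pure the samples were. The 2 probes of Ppargc1a, which encodes PGC-1α, had mPGC-1α minus control differences of -0.41 and -0.31 with overlapping groups, so the overexpression named by the labels was not seen as a higher signal on these probes. Whether they read the transgene's transcript is not given in the sources used here. Cx3cr1, the locus whose promoter drives the Cre, has 2 probes. The probe A_52_P99810 was at 4.19, 3.66 and 4.11 in control and at 2.79, 2.36 and 3.13 in mPGC-1α, lower without overlap. Its difference was -1.23 (SE 0.24), with an unadjusted limma p of 0.000616. The adjusted p was 0.684 and ranged from 0.000184 to 1.00 over the alternatives. The other probe, A_55_P2007964, was too often marked as an outlier to be tested. Its unmarked readings were 3.96 and 3.75 on control arrays 1 and 3 and 3.57 on mPGC-1α array 1. With all readings kept, its difference was -0.33 (SE 0.21, limma adjusted p = 0.749). The group is called mPGC-1α as labelled.

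None of the 14 inflammasome probes differed between mPGC-1α and control microglia at an adjusted p below 0.05 in limma, and 0 of 40745 probes tested did (0%). With the replicate number as a block, 0 of 14 member probes and 1 of all probes, a lower one, passed (0.00245%). At an unadjusted p below 0.05 there were 3 of 14 member probes, with Casp4 higher and the dimmer probes of Nek7 and Gsdmd lower in mPGC-1α, against 7.17% of all tested probes. By direction the shares over all probes were 2.65% higher and 4.52% lower. The groups did not overlap in 3 of the 12 member probes with all 6 values, all 3 higher in mPGC-1α (Casp1, Casp4 and Il18), against 6.8% of all such probes that lay higher without overlap and 11.5% in either direction. With the brightest probe for each gene, 6 of 10 genes had a higher and 4 a lower mean in mPGC-1α. Their median log2 difference was 0.08. Over the brightest probes of all 18222 named genes tested the median was 0.11, with 64% above 0, and over all tested probes it was 0.08, with 60.1% above 0. Each probe was also compared by an exact permutation test (two-sided), for which 3 arrays against 3 can give no p below 0.1. Since each array holds the RNA of many cells, fewer cells of a type and less RNA per cell cannot be told apart in any of these values.

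**Figure D1:**
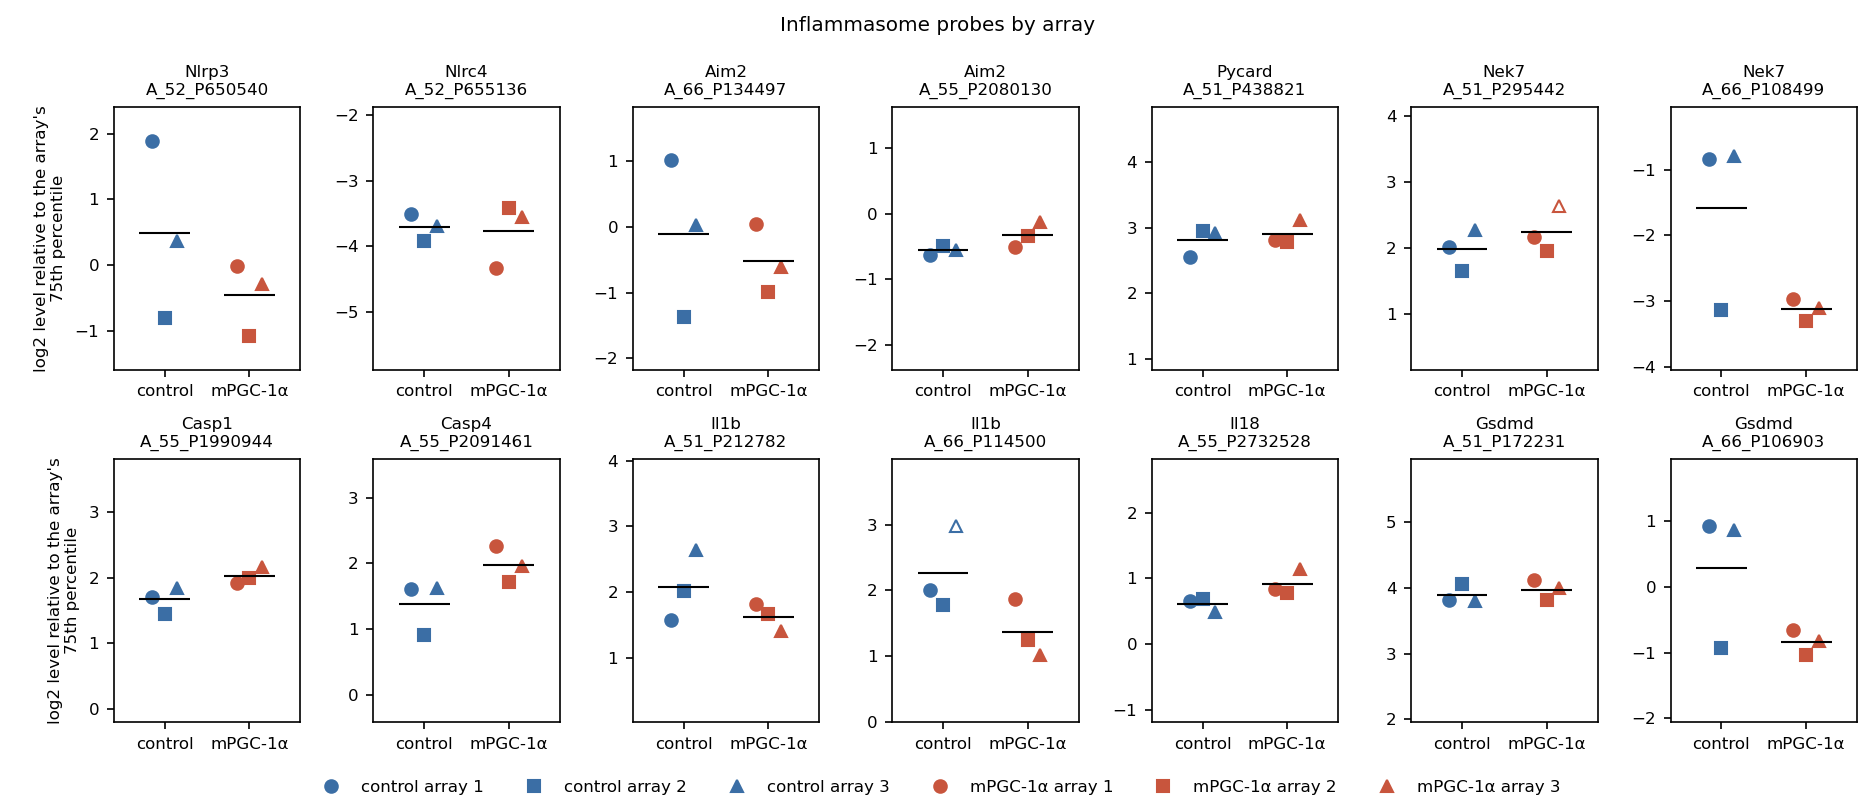
Log2 level of the 14 inflammasome probes relative to the 75th percentile of the array (y axis, spanning 4 log2 units in every panel) on the 3 control arrays (blue) and the 3 mPGC-1α arrays (red), with the array number given by the symbol. Black lines are group means over all 3 readings, and open symbols are readings marked as outliers. The control arrays spread widely for Nlrp3, the Aim2 probe A_66_P134497 and the dimmer probes of Nek7 and Gsdmd, while for Casp1, Casp4 and Il18 every red point lies above every blue one.

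The sensors had lower means in mPGC-1α microglia by their brightest probes, but in each the groups overlapped. Nlrp3, which senses potassium efflux and other signs of membrane or organelle damage, was at 1.89, -0.80 and 0.37 on control arrays 1, 2 and 3, and at -0.01, -1.08 and -0.29 on mPGC-1α arrays 1, 2 and 3. Control arrays 1 and 3 lay above all mPGC-1α arrays, while control array 2 lay below mPGC-1α arrays 1 and 3. This amounted to a difference of -0.95 (SE 0.59, 95% interval -2.27 to 0.37, limma adjusted p = 0.758), and the exact permutation p was 0.4. Each mPGC-1α array was below the control array of the same number, with differences of -1.90, -0.28 and -0.66, and slide by slide the genotypes differed by -1.09 (arrays 1 and 2) and -0.66 (array 3). The size depended on single control arrays, being -0.24 without control array 1 and -1.59 without control array 2.

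Nlrc4, the sensor that partners with NAIP proteins on bacterial flagellin and secretion systems, was a dim probe. It was at -3.50, -3.92 and -3.69 in control and at -4.34, -3.42 and -3.55 in mPGC-1α arrays. The mPGC-1α arrays held both the highest and the lowest of these values. The difference was -0.06 (SE 0.34, limma adjusted p = 0.975).

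Aim2, which senses cytosolic DNA, was read differently by its 2 probes. The probe A_66_P134497 was at 1.02, -1.37 and 0.02 in control and at 0.04, -0.997 and -0.61 in mPGC-1α, with control array 1 highest and control array 2 lowest. Its difference was -0.41 (SE 0.54, limma adjusted p = 0.884), and without control array 1 it was 0.15. The probe A_55_P2080130 varied little, at -0.63, -0.49 and -0.56 in control and -0.50, -0.34 and -0.13 in mPGC-1α, with a difference of 0.24 (SE 0.22, limma adjusted p = 0.826). The signs of the probes were opposite, their groups overlapped, and neither passed the test.

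The adaptor and the kinase of the complex had small log2 differences by their brighter probes, 0.09 for Pycard and 0.07 for Nek7, beside a median of 0.11 over the brightest probes of all named genes. Pycard encodes ASC, which links sensors to caspase-1. It was at 2.56, 2.96 and 2.92 in control and at 2.82, 2.78 and 3.12 in mPGC-1α, with a difference of 0.09 (SE 0.20, 95% interval -0.35 to 0.54, limma adjusted p = 0.934). The groups interleaved.

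Nek7, a mitotic kinase that binds NLRP3 and is needed for its assembly, gave results that depended on the probe. The probe A_51_P295442 was at 2.02, 1.65 and 2.27 in control and at 2.16 and 1.95 on mPGC-1α arrays 1 and 2, with a difference of 0.07 (SE 0.25, limma adjusted p = 0.959). With the marked reading of mPGC-1α array 3 kept, that difference was 0.27. The probe A_66_P108499 was at -0.83, -3.14 and -0.80 in control and at -2.97, -3.30 and -3.11 in mPGC-1α. Control arrays 1 and 3 stood at least 2.13 units above the other 4 arrays, among which control array 2 lay. The difference of this probe was -1.53 (SE 0.57, 95% interval -2.81 to -0.26), with an unadjusted limma p of 0.023 and an adjusted p of 0.684. Without control array 2 it was -2.31 with a limma adjusted p of 0.00124, and over all the alternatives run the adjusted p ranged from 0.00124 to 1.00. Of all tested probes, 4.99% passed as lower in the fit without control array 2.

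The inflammatory caspases had no overlap between the groups, with mPGC-1α higher, though neither passed the test across the array. Casp1, the protease that the inflammasome activates, was at 1.71, 1.44 and 1.85 in control and at 1.92, 2.00 and 2.16 in mPGC-1α. The lowest mPGC-1α array was 0.07 above the highest control array, and the control arrays spread over 0.41. The difference was 0.36, 1.28-fold (SE 0.20, 95% interval -0.08 to 0.80, limma adjusted p = 0.734, exact permutation p = 0.1). Casp4, called caspase-11 in mice, binds intracellular lipopolysaccharide and cuts gasdermin D in the non-canonical pathway. It was at 1.61, 0.91 and 1.63 in control and at 2.26, 1.72 and 1.96 in mPGC-1α, with control array 2 the lowest of all. The difference was 0.59, 1.51-fold (SE 0.26, 95% interval 0.02 to 1.17), with an unadjusted limma p of 0.044, an adjusted p of 0.690 and an exact permutation p of 0.1. Over all the alternatives for processing that were run, the difference stayed between 0.24 and 0.56 for Casp1 and between 0.36 and 0.80 for Casp4. On the slide with arrays 1 and 2 it was 0.38 for Casp1 and 0.73 for Casp4, and on the slide with array 3 it was 0.31 and 0.33.

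The substrates had means that differed in either direction. Il1b, the precursor of IL-1β, had lower means in mPGC-1α by both probes. The probe A_51_P212782 was at 1.57, 2.02 and 2.65 in control and at 1.82, 1.66 and 1.40 in mPGC-1α. Control arrays 2 and 3 were above all mPGC-1α arrays, and control array 1 was below mPGC-1α arrays 1 and 2. This gave a difference of -0.45 (SE 0.28, 95% interval -1.08 to 0.18, limma adjusted p = 0.758), and it came mostly from the slide with array 3, where it was -1.25, against -0.06 on the slide with arrays 1 and 2. Without control array 3 it was -0.17. The probe A_66_P114500 was at 2.01 and 1.79 on control arrays 1 and 2 and at 1.87, 1.24 and 1.01 in mPGC-1α, with a difference of -0.52 (SE 0.29, limma adjusted p = 0.744), or -0.88 with the marked reading of 2.99 on control array 3 kept. Control array 3 was thus the brightest array for both probes, one of these readings being marked.

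Il18, the precursor of the interferon-γ-inducing cytokine IL-18, was at 0.66, 0.68 and 0.49 in control and at 0.84, 0.77 and 1.14 in mPGC-1α. All mPGC-1α arrays were above all control arrays, by 0.10 at the closest. The difference was 0.31, 1.24-fold (SE 0.20, 95% interval -0.15 to 0.76, limma adjusted p = 0.769, exact permutation p = 0.1), with 0.14 on the slide of arrays 1 and 2 and 0.65 on the slide of array 3. Il1b and Il18, which caspase-1 cuts alike, therefore had means that differed in opposite directions, neither past the threshold.

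Gsdmd, the pore-forming executor of pyroptosis, was again read differently by its 2 probes. The probe A_51_P172231 was at 3.82, 4.06 and 3.81 in control and at 4.11, 3.82 and 3.99 in mPGC-1α, with a difference of 0.08 (SE 0.18, 95% interval -0.31 to 0.48, limma adjusted p = 0.936). Its groups interleaved. The probe A_66_P106903 was at 0.93, -0.94 and 0.86 in control and at -0.65, -1.04 and -0.82 in mPGC-1α, with control arrays 1 and 3 again above the other 4. Its difference was -1.12 (SE 0.45, 95% interval -2.14 to -0.10), with an unadjusted limma p of 0.035 and an adjusted p of 0.686. Without control array 2 it was -1.73 with a limma adjusted p of 0.00267, within a range from 0.00267 to 1.00 over the alternatives. As for Nek7, 4.99% of all tested probes passed as lower in the fit without control array 2.

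**Figure D2:**
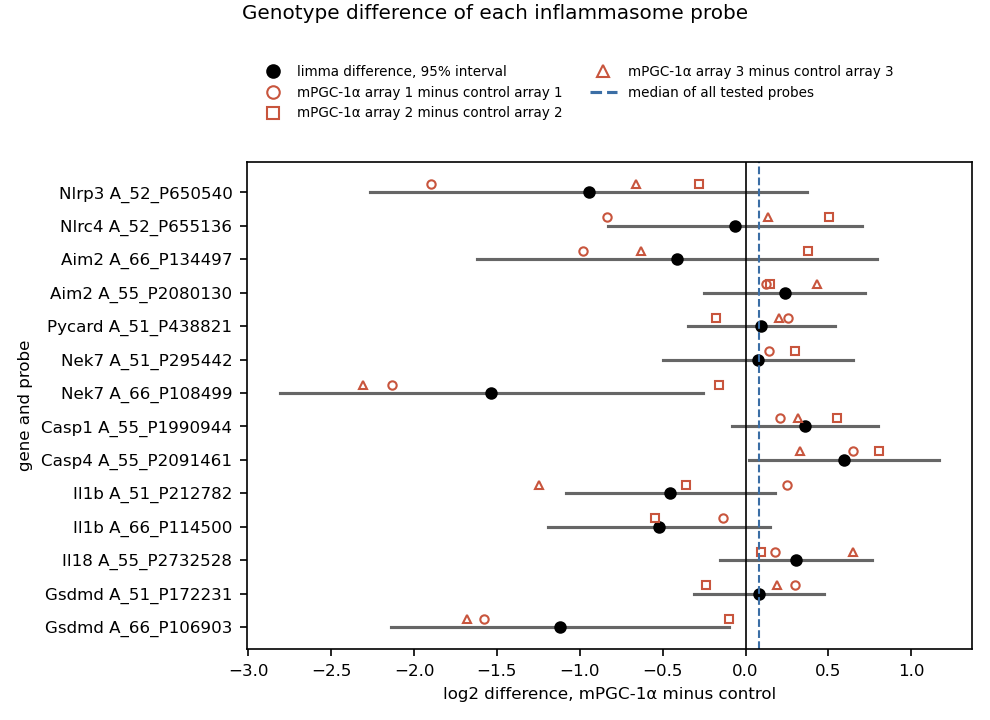
Log2 difference between mPGC-1α and control (x axis) for each of the 14 inflammasome probes (y axis), with black points and grey bars for the limma difference and its 95% interval, and red open symbols for the difference between arrays of the same number. The dashed line is the median of all tested probes, at 0.08. Intervals leave out 0 for Casp4 and for the dimmer probes of Nek7 and Gsdmd, and for those dimmer probes the difference of the arrays numbered 2 is close to 0.

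The agreement between probes of one gene was examined as the gap between the brighter and the dimmer probe on each array, since the level of a transcript cancels in the gap if both probes read it alike. For Nek7 the gap was 2.85, 4.79 and 3.06 in control and 5.12, 5.25 and 5.74 in mPGC-1α. The groups did not overlap. These gaps include the readings marked as outliers, here on mPGC-1α array 3, and the exact permutation p over all 6 was 0.1. Control arrays 1 and 3 had gaps at least 1.73 units smaller than any other array. For Gsdmd the gap was 2.89, 4.99 and 2.94 in control and 4.76, 4.85 and 4.81 in mPGC-1α. Here control array 2 had the widest gap of all, the 3 mPGC-1α arrays agreed within 0.09, and control arrays 1 and 3 alone stood apart. The brighter probes of Nek7 and Gsdmd ranged over 0.99 and 0.31 units across the 6 arrays, and the dimmer ones over 2.51 and 1.96. For Aim2 the gap was 1.65, -0.89 and 0.59 in control and 0.55, -0.66 and -0.48 in mPGC-1α, with array 1 of each group highest. For Il1b the gap kept within 0.85 units over all 6 arrays, at -0.43, 0.24 and -0.34 in control and -0.05, 0.42 and 0.39 in mPGC-1α, the narrowest range of the 4 genes, with the marked reading on control array 3 included. Which transcripts the probes of a gene read is not given in the sources used here.

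**Figure D3:**
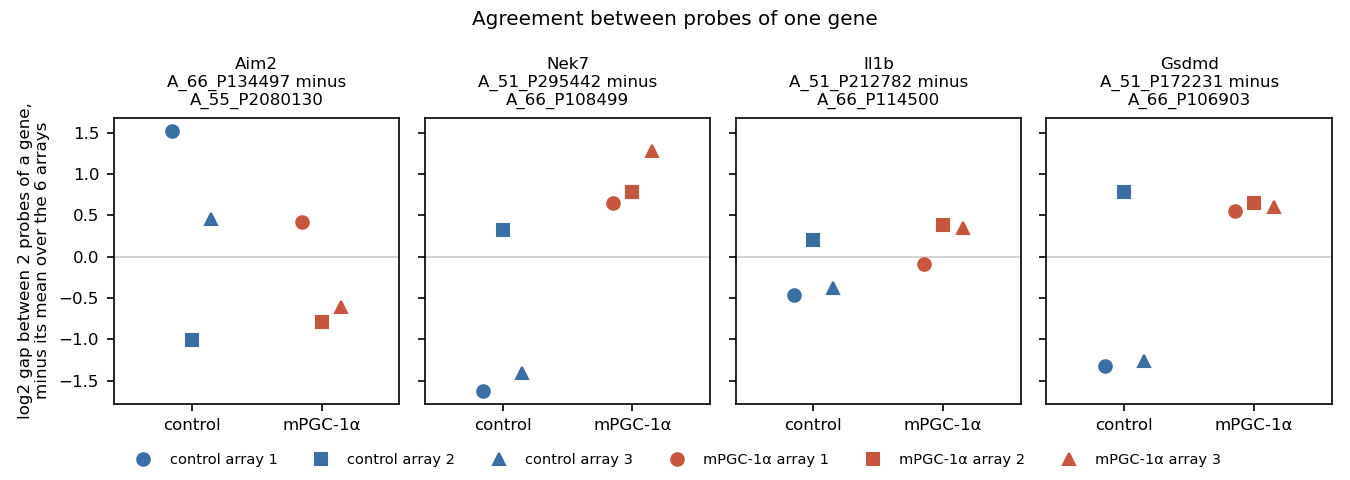
Gap in log2 level between the 2 probes of Aim2, Nek7, Il1b and Gsdmd (y axis), minus its mean over the 6 arrays, for control arrays (blue) and mPGC-1α arrays (red), with the array number given by the symbol. For Nek7 and Gsdmd, control arrays 1 and 3 lie low and control array 2 lies near or with the mPGC-1α arrays, while the Il1b gaps stay within 0.85 units.

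The pattern of the dimmer Nek7 and Gsdmd probes was then counted across the array, after their values had been seen. Control arrays 1 and 3 both lay at least 1 unit above each of the other 4 arrays in 1289 of 36995 tested probes with all 6 values (3.48%). These held 2 of 12 member probes, the dimmer ones of Nek7 and Gsdmd. Among other genes of the pathway they held Gbp2 and Il1rn. Over all 14 probes, control array 2 was the lowest array 4 times and never the highest, control array 1 was the highest 3 times, control array 3 was the highest 3 times, and mPGC-1α array 3 was the highest 5 times.

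The rest of the pathway was read from a list of 58 genes in 6 groups by role, of which 56 were tested. By their brightest probes 32 had higher and 24 lower means in mPGC-1α, with a median difference of 0.04 beside 0.11 over the brightest probes of all named genes, and 0 had an adjusted p below 0.05. At an unadjusted p below 0.05 there were 1 higher (Il33) and 2 lower (Nfkb1 and Il1rn), against 3.41% and 2.68% of the brightest probes of all named genes. Of the 47 with all 6 values, 5 lay higher without overlap (8.48% over the brightest probes of all named genes, 6.8% over all probes) and 2 lower (3.45% and 4.66%). The 5 were Nlrp1a, P2rx4, Panx1, Syk and Ninj1, and the 2 were Mark4 and Il1rn, of which Nlrp1a, P2rx4, Panx1 and Syk are named after their values were seen.

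In the group of IL-1 family ligands and receptors, 3 of 10 genes had higher and 7 lower means. Il1rn, which encodes the receptor antagonist that blocks IL-1 signalling, had the widest difference of the list. It was at 2.40, -1.42 and 2.78 in control and at -2.01, -1.66 and -1.97 in mPGC-1α. The mPGC-1α arrays lay within 0.35 of each other and just under control array 2, and control arrays 1 and 3 were at least 3.83 units above all others. The difference was -3.13 (SE 0.91, 95% interval -5.17 to -1.09), with an unadjusted limma p of 0.00686 and an adjusted p of 0.684. It passed under 3 alternatives. Without control array 2 it was -4.47 with a limma adjusted p of 0.000312, and the lowest and highest adjusted p of the alternatives were 1.91e-08 and 1.00. In the fit without control array 2, a share of 4.99% of all tested probes passed as lower. The other passes were fits with a replicate block. A second Il1rn probe, too often marked as an outlier to be tested, was at 1.29, 0.13 and 1.12 in control and at -0.94, -0.53 and -1.34 in mPGC-1α with all readings kept, so that control array 2 was above the mPGC-1α arrays there too. Il33, an alarmin of the IL-1 family that in brain is made largely by oligodendrocytes and astrocytes, was at -3.92, -3.03 and -4.69 in control and at -1.94, -2.97 and -3.13 in mPGC-1α. Its groups overlapped at control array 2. The difference was 1.20 (SE 0.48), with an unadjusted limma p of 0.032 and an adjusted p of 0.686, while a dimmer Il33 probe had a difference of -0.03.

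Among priming receptors and signalling, 7 of 9 genes had higher and 2 lower means. Nfkb1, the p105 and p50 subunit of NF-kappaB, was at 1.59, -0.03 and 0.94 in control and at 0.21, -0.28 and -0.42 in mPGC-1α. Control array 2 again lay among the mPGC-1α arrays. The genotypes had a log2 difference of -0.997 (SE 0.38), with an unadjusted limma p of 0.028 and an adjusted p of 0.685. Leaving out control array 1 gave -0.62, and leaving out control array 2 gave -1.43, where the limma adjusted p was 0.0251, within a range from 0.0251 to 1.00 over the alternatives. Again 4.99% of all tested probes passed as lower without control array 2. Tlr2, a receptor for bacterial lipoproteins, had a difference of 0.54 (SE 0.35) with the reading of mPGC-1α array 3 left out as marked.

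Among genes that act upstream of NLRP3, 6 of 9 had higher and 3 lower means. Gbp5 and Gbp2, interferon-induced GTPases that bind pathogen membranes, had differences of -1.61 (SE 0.95) and -1.15 (SE 0.84). For Gbp5 this rested on mPGC-1α array 1 at -7.35, where the probe was not well above background, and for Gbp2 on control arrays 1 and 3. Without mPGC-1α array 1 the Gbp5 difference was -0.25. Without control array 2 the Gbp2 difference was -2.38 with a limma adjusted p of 0.00153, within a range from 0.00153 to 1.00. Here too 4.99% of all tested probes passed as lower without control array 2. Among modifiers of the NLRP3 complex, 7 of 10 tested genes had higher and 3 lower means. Mark4, a microtubule-linked kinase, had a difference of -0.79 (SE 0.44), or -0.25 without control array 1. Tnfaip3, the deubiquitinase A20 that restrains NF-kappaB, had 0.68 (SE 0.51) over 2 arrays a group.

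Among the other sensors, 7 of 11 had higher and 4 lower means. The widest differences were -0.53 (SE 0.35) for Nlrp12 and 0.28 (SE 0.20) for Zbp1, a sensor of Z-form nucleic acids. Among cell death effectors 2 of 7 had higher means and 5 lower. Ninj1, which ruptures the membrane of dying cells, had 0.35 (SE 0.20) with groups that did not overlap, and 0.06 by its other probe. For Nlrp12 and Zbp1 the other probes gave 0.11 and 0.00.

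**Figure D4:**
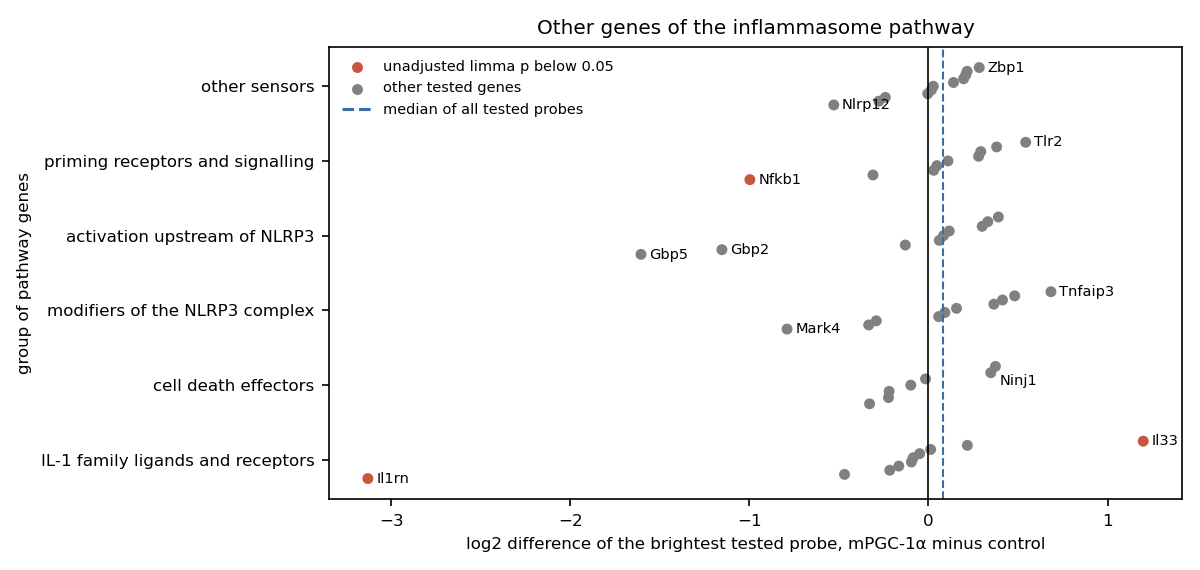
Log2 difference between mPGC-1α and control (x axis) for the brightest tested probe of 56 pathway genes in 6 groups by role (y axis). Red points have an unadjusted limma p below 0.05, names mark the genes described in the text, and the dashed line is the median of all tested probes. Most genes lie within 0.5 of 0, and Il1rn at -3.13 lies far from the rest.

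Mean levels of some marker lists of other cells lay apart between the groups. The mean level of 7 astrocyte markers was -0.60 to 0.08 on control and 0.16 to 1.51 on mPGC-1α arrays. That of 10 neuron markers was -1.58 to -1.16 and -1.14 to -0.13. Both lay higher in mPGC-1α without overlap, as Casp1, Casp4 and Il18 did, though narrowly for the neuron markers. The mean of 6 endothelial and mural markers, low on all arrays, was also without overlap, narrowly, at -2.51 to -2.42 and -2.40 to -2.36. Its difference was 0.09, beside a median of 0.08 over all tested probes, and Pecam1 went the other way at -1.22. Rgs5 was well above background on no array. The mean of 6 oligodendrocyte markers overlapped narrowly, at -1.53 to -0.01 and -0.07 to 0.90. Its difference of 1.05 was the largest of the 8 lists, beside 0.86 for astrocyte and 0.80 for neuron markers. Means were higher in mPGC-1α for 8 of 8 oligodendrocyte, 7 of 7 astrocyte and 9 of 10 neuron markers tested. For endothelial and mural markers they were higher for 5 of 6. By gene, 3 of 7 astrocyte, 1 of 10 neuron, 2 of 6 endothelial and mural and 3 of 6 oligodendrocyte markers lay higher without overlap. The share over the brightest probes of all named genes was 8.48%. In these lists 0 genes had a limma adjusted p below 0.05, as was so for all tested probes. At an unadjusted limma p below 0.05, 5 of 10 neuron, 3 of 7 astrocyte and 3 of 8 oligodendrocyte markers were higher. For endothelial and mural markers it was 1 of 6, and in these lists 0 were lower. The share higher over the brightest probes of all named genes was 3.41%. All 8 astrocyte, all 8 oligodendrocyte and 9 of 10 neuron markers were well above background on all 6 arrays. Il1b and Nlrp3 are also expressed by myeloid leukocytes, and the mean levels of leukocyte markers overlapped between the groups. For monocytes and border macrophages (9 genes) they were at 1.05 to 1.48 in control and 0.41 to 1.38 in mPGC-1α. For neutrophils (4 of 12 genes) they were at 1.75 to 2.61 and 0.43 to 2.65, with mPGC-1α array 1 lowest in both lists. For lymphocytes (8 genes) they were at -1.84 to -0.36 and -1.75 to -0.71. Of 12 monocyte and border macrophage markers, 1 had a higher and 11 a lower mean in mPGC-1α (median difference -0.19). The counts were 4 and 4 for neutrophils and 5 and 3 for lymphocytes, while 64% of all named genes lay above 0. The mean of the microglia markers was at 3.86 to 4.19 and 3.72 to 3.94, over 8 of the 15. Among these 8, Cx3cr1 and Olfml3 had differences of -1.23 and -1.36, and the others lay between -0.15 and 0.33. Of the 12 microglia markers tested, 6 had higher and 6 lower means in mPGC-1α, with a median difference of 0.05. The shift from centring thus depends on which markers are used. When each array was centred on its microglia markers, differences of probes with all 6 readings shifted upward by 0.20, the median of the 10 members was 0.29 and that of the brightest probes of all named genes was 0.31. The part of these cells in the inflammasome values was not tested.

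**Figure D5:**
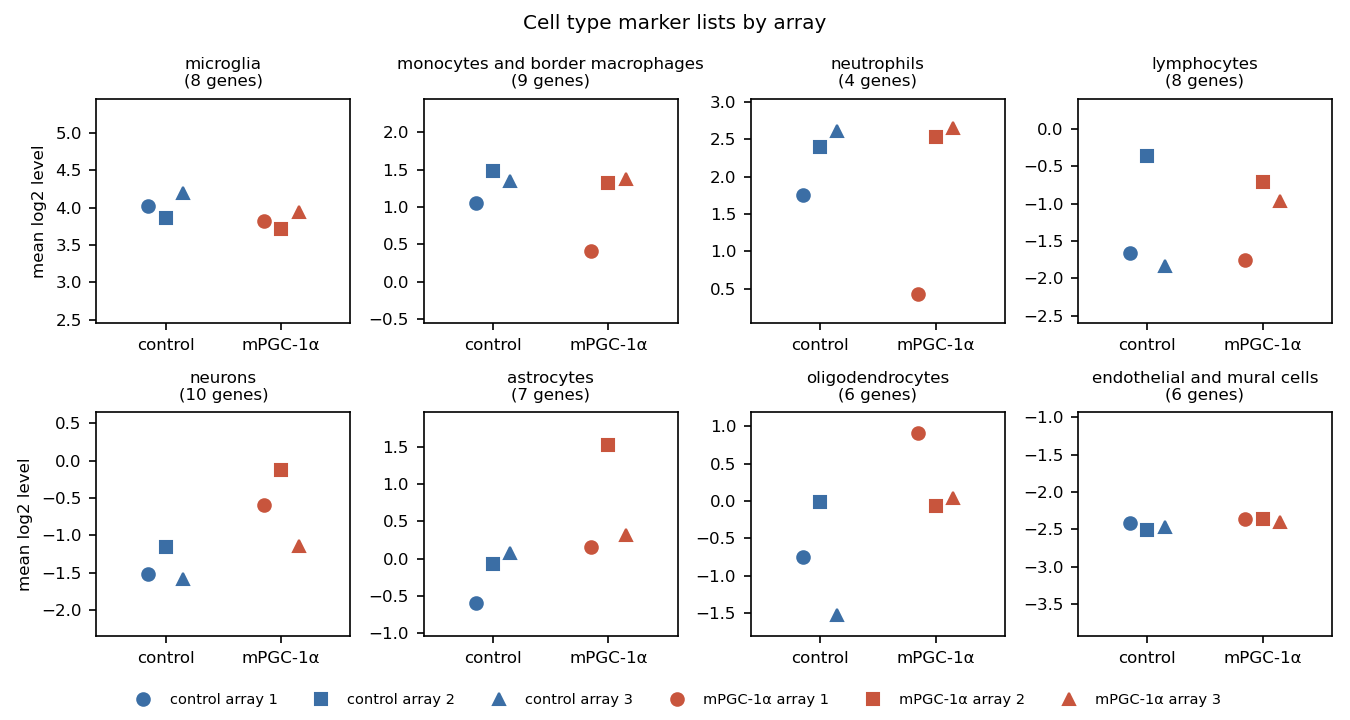
Mean log2 level of 8 marker lists (y axis, spanning 3 log2 units in every panel) on the 3 control arrays (blue) and the 3 mPGC-1α arrays (red), with the array number given by the symbol and the number of genes with all 6 values under each title. For astrocyte, neuron and endothelial markers every red point lies above every blue one, and neutrophil markers are lowest on mPGC-1α array 1.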

How the data were processed

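Linear intensity values per spot were deposited by the authors as scanner files of 1-colour Agilent arrays, with the software given in their headers as Agilent Feature Extraction 11.5.1.1. Background had been subtracted in the processed signal, without scaling between arrays. The labels name Cy3 in one field and Cy5 in another, and the single green channel was used. The log2 values deposited by the authors as a series matrix were normalized in GeneSpring 13 per the study's methods. They correlated with the scanner values of the same array at r of 0.9989 or above over 46731 probes and served as an alternative.

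Each array's log2 processed signal was set against its 75th percentile over probes that are not controls, with spots marked as outliers left out of the probe values but kept in the percentile, so that every array used the same probes. The percentile ranged from 702 to 1179 intensity units. Probes were named by accession through a RefSeq gene table (33767 of 56605). Tests took the 40745 probes whose unmarked readings in one group or the other were all well above background, with at least 2 readings in each group. Groups were compared with limma 3.58.1 in R 4.3.3 (two-sided, with an intensity trend and no term besides group, Benjamini-Hochberg over all tested probes, threshold 0.05), tested on simulated data. Only 3 arrays a group limit the precision. The brightest probe has the highest mean over the 6 arrays. From each group of the pathway list, the 2 genes with the widest difference and any with an unadjusted p below 0.05 are named. Of these, 1 gene is not reported here. The members and lists were chosen with earlier results of these data known.

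Replicate numbers come from the labels. Same-numbered samples deviated together from their group means, with correlations of 0.25, 0.22 and 0.17 over probes against -0.34 to 0.03 for other pairs, so a fit with the number as a block was run as an alternative. Deviations from a mean of 3 arrays sum to 0, so positive values for some pairs force lower ones for others. Other alternatives changed the normalization, background correction, dim-probe filter, outlier marks, slide term, intensity trend or arrays used. RefSeq promoters were matched by symbol for 9 of 10 genes.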

Additional observations from a re-analysis of the deposited data

How the results depend on the processing

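The count of 0 member probes past the threshold held under all alternatives but 2. Leaving out each array in turn gave 0 to 2102 probes overall and 0 to 2 member probes, both ends above 0 coming from the fit without control array 2 (140 higher and 1962 lower), where the dimmer Nek7 and Gsdmd probes passed. With the replicate number as a block, 1 probe passed overall and 0 members did. The block combined with quantile normalization gave 0, with centring on microglia markers 536 overall and 0 members, and with the percentile taken over unmarked probes 1720 of 40745 overall and 2 of 14 members, again the dimmer Nek7 and Gsdmd probes (these combinations were chosen after seeing the data). Nfkb1, Gbp5, Il1rn, Il33 and Cx3cr1 also passed under the last of these, and Il1rn and Cx3cr1 under the block with centring on microglia markers. The cause was not tested. Over the 14 probes, 7 had higher and 7 lower means, but 4 and 10 under quantile normalization. Differences that turned in sign were all small or probe-dependent. Under quantile normalization, Pycard was at -0.026 (also with the block), Nek7 A_51_P295442 at -0.0095 and Gsdmd A_51_P172231 at -0.081 (also with the block). With normexp background correction these Nek7 and Gsdmd probes were at -0.028 and -0.085, and with the series matrix values Pycard was at -0.015 and Gsdmd at -0.064. Nlrc4 was at 0.14 when centred on microglia markers, with or without the block, and at 0.012 with the percentile over unmarked probes, with or without the block. Nek7 A_51_P295442 was at -0.0020 with that percentile and no block. The mean of both probes gave -0.73 for Nek7 and -0.52 for Gsdmd. Leaving out each array gave -0.24 to 0.22 for Nlrc4, -1.04 to 0.15 for Aim2 A_66_P134497, -0.032 to 0.17 for Pycard and -0.090 to 0.22 for Nek7 A_51_P295442. Nlrp3, Casp1, Casp4, Il1b and Il18 kept their sign under every alternative that gave a value and did not pass the threshold under any. All readings of the members were well above background.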
